A study of Mus musculus with 44 samples.

Results

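The 44 genes described here encode homeobox transcription factors other than those that define the medial habenula (MHb) and the interpeduncular nucleus (IPN), and they were chosen by name from the LIM, NKX, POU, DLX, sine oculis (Six3), TALE, engrailed, OTX, zinc finger and CUT classes. All 44 were found among the 22682 gene symbols shared by every file. The data are 44 RNA-seq libraries from adult mice over 8 weeks of age, made by translating ribosome affinity purification (TRAP), in which a GFP-tagged ribosomal protein L10 is expressed in chosen neurons and their polysomes are pulled down with anti-GFP beads. The pulldown (IP) holds mRNA bound to tagged ribosomes, and the input is RNA of the whole homogenate of the dissected region.

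All mice were on the B6J.Cg background, and each library came from a pool of animals. For the MHb, a single-transgenic bacTRAP line (ChAT-TRAP, DW167) tags neurons under the control of the Chat gene. It gave 3 IPs from mice on nicotine and 9 control IPs, with 4 control inputs. For the IPN, the BAC Cre lines Chrna5-Cre (SN83), Amigo1-Cre (NP231) and Epyc-Cre (KR363) were each crossed to Eef1a1-LSL.EGFPL10, which expresses the tag wherever Cre has acted. The Chrna5 line gave 3 IPs and 4 inputs, all baseline. The Amigo1 line gave 3 nicotine IPs, 3 control IPs (baseline 1 and 4, saline pump 1) and 4 inputs (3 baseline, 1 saline pump), and the Epyc line gave 2 nicotine IPs, 5 control IPs (baseline 1 to 4, saline pump 1) and 4 inputs (3 baseline, 1 saline pump). Nicotine was given to ChAT and Amigo1 mice as nicotine tartrate at 500 mg/L in water with 0.2% saccharin for 6 weeks, and to Epyc mice by pump at 24 mg/kg per day as free base. In 1 of the 3 ChAT nicotine pools the mice also had a saline injection 3 h before collection. Control ChAT IPs were 4 baseline, 1 saline pump, 2 saccharin water and 2 saccharin water with a saline injection 3 h before collection. Control ChAT inputs were 2 baseline, for which the MHb of 9 males was taken from the left or from the right side, and 2 saccharin water with the injection. Males and females were pooled elsewhere unless the labels say otherwise, and Chrna5 pool 4 was male.

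Homeobox factors bind DNA through the homeodomain and specify where along the body axes a neuron lies and what kind of neuron it becomes. OTX factors mark forebrain and midbrain, engrailed factors the midbrain-hindbrain boundary, DLX factors and Six3 the anterior forebrain, and NKX factors the ventral neural tube. LIM factors act with LDB cofactors, and TALE factors (MEIS, PBX) act as partners of other homeodomain proteins. The MHb is a diencephalic nucleus whose cholinergic neurons project to the IPN, which lies at the ventral midbrain-hindbrain border next to dopamine and serotonin nuclei.

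The promoters of 4 members on which the regional contrasts turn are shown as the 250 bases before a RefSeq transcript start (build GRCm38.p6), each read 5′ to 3′ on the gene's strand. Capitals mark matches to 3 short homeodomain motifs on either strand, the core motif TAATTA, the OTX-type motif TAATCC and the TALE-type motif TGACAG.
Lhx9, chr1:138842445-138842694, minus strand: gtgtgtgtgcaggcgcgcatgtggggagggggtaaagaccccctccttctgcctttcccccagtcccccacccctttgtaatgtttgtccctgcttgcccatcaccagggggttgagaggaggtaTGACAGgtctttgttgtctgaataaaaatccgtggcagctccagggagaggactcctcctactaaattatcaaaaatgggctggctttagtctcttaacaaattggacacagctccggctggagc
Otx2, chr14:48665110-48665359, minus strand: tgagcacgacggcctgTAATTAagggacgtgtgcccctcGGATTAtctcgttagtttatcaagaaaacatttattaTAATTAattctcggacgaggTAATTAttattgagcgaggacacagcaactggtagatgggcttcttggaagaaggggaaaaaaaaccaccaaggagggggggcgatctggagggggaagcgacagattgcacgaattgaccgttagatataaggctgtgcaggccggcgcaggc
Meis2, chr2:116064620-116064869, minus strand: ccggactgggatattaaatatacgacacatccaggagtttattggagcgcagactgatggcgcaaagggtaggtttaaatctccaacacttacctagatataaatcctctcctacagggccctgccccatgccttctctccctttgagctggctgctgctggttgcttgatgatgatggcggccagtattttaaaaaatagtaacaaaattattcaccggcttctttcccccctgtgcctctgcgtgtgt
En1, chr1:120602237-120602486, plus strand: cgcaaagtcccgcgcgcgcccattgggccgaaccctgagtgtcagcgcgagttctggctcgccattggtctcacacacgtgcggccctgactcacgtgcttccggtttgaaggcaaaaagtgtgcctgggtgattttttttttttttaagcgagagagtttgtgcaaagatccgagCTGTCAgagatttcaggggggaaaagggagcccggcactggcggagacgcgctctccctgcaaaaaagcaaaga
Lhx9 and En1 each held 1 TALE-type match (CTGTCA is its reverse complement in En1), Otx2 held 3 core matches and 1 OTX-type match (GGATTA), and Meis2 held none. The Otx2 promoter shown is the one with the most matches. Its other promoters held 1 core match (chr14:48667645-48667894) or none (chr14:48667509-48667758 and chr14:48662735-48662984). Of the 44 members, 35 had RefSeq promoters, 48 in all. The core motif was in 2 of these 48 promoters (1 member), the OTX-type motif in 2 (2 members) and the TALE-type motif in 5 (5 members). Of all 32851 promoters of the same length, 4.84%, 6.25% and 15.9% held them.

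Libraries held 7908401 to 70481509 counts in genes. Levels are CPM, counts scaled to each library's total in shared symbols, and 3 counts, the limit that a count of 0 allows, were worth 0.0495 to 0.436 CPM. The Amigo1 saline pump IP was the shallowest, and it stood apart from the other Amigo1 control IPs for several members. Several results of that line are therefore given with and without it. Counts had been made against 3 gene lists of different size, and the same symbol can lose or gain reads with the list. The ChAT comparisons therefore use the 3 control IPs on the list of the inputs (saccharin water 1 and 2, and saline-injected saccharin water 2), and they are the ChAT IPs meant below unless all 9 or the paired pools are named. Fits with a replicate block use the paired pools alone, meaning pools that gave an IP as well as an input, and thus change the libraries as well as the model. In ChAT these are the 2 saline-injected saccharin water pools, of which the IP of pool 1 is on another list than the inputs (17.3 CPM of Cux2 and 30.2 of Pou3f3, against 36.1 and 75.8 in the IP of pool 2). Amigo1 and Epyc IPs are on another list than their inputs. A shift between these lists was estimated in ChAT IPs, as a median absolute 0.376 on the log2 scale over 14893 genes. The control ChAT IPs on the list of the Amigo1 and Epyc IPs were saline-injected saccharin water 1 and saline pump 1. They are other pools, in part with other treatments, than those on the inputs' list. List, pool and treatment therefore cannot be told apart in this shift. The shift was called for 982 of the 14893 genes and for 3 of 33 members tested, Pou2f2 (-1.86), Pou3f3 (-1.11) and Cux2 (-0.93). More RNA went into cDNA synthesis for MHb than for IPN libraries, so region and RNA amount cannot be told apart.

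Most markers of the labelled cells rose in the IPs, with the fewest in the Epyc line. Medial habenula neuron markers, 7 of 7, rose in ChAT IPs (sum 7050 to 7630 CPM, against 855 to 985 CPM in inputs). Of 7 interpeduncular markers, 7, 6 and 4 rose in Chrna5, Amigo1 and Epyc IPs and 0, 1 and 2 fell (Otp in the Amigo1 and Epyc lines, Nos1 in the Epyc line). They summed to 5820 to 6330, 6380 to 6850 and 1650 to 2010 CPM in these IPs, against 789 to 1660 CPM in the inputs. The driver genes Chat, Chrna5 and Epyc rose in their own lines by 2.95, 1.82 and 3.22 on the log2 scale, while Amigo1 had 114 to 178 CPM in Amigo1 IPs and 136 to 184 CPM in Epyc IPs. Oligodendrocyte markers, 7 of 7, fell in every line's IPs.

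Below, a difference is the log2 ratio of edgeR's quasi-likelihood fit over all genes, given ± its standard error, and it is called when its Benjamini-Hochberg adjusted p is under 0.05. In whole tissue, 20 members were higher and 9 lower in IPN than in MHb inputs among 39 tested, where 28.9% of all genes were called. In the ChAT line 10 members rose and 20 fell in the IP among 39 tested (50.5% of all genes called). In the Chrna5 line 8 rose and 15 fell among 31 tested (34.0%), in the Amigo1 line 6 and 16 among 32 (30.6%), and in the Epyc line 5 and 18 among 33 (36.1%). The median of the tested members was -1.09, -0.71, -0.65 and -1.13 in the ChAT, Chrna5, Amigo1 and Epyc lines, against -0.05, -0.02, -0.03 and -0.01 over all genes tested. Between the labelled neurons of the MHb and of the IPN, 7 members were higher and 13 lower in ChAT than in Chrna5 IPs among 32 tested (31.7%), with a median absolute difference of 2.51, against 0.58 over all genes. Between the IPN lines, 3 were higher and 0 lower in Amigo1 than in Epyc IPs among 30 tested (7.51%), and DESeq2 called Pou3f4, Meis1 and Meis3 lower. Without the Amigo1 saline pump IP, edgeR called Lhx1 (-0.82, adjusted p = 0.0386), Pou3f4 (-2.51, adjusted p = 0.0352) and Satb1 (-0.75, adjusted p = 0.0124) lower. The enrichment in the IP was itself compared between lines. It was higher for 9 members and lower for 9 in the ChAT than in the Chrna5 line among 43 tested (22.3% of all genes called, a comparison added after seeing the data), and higher for 3 and lower for 2 in the Amigo1 than in the Epyc line among 34 tested (4.07%).

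**Figure D1:**
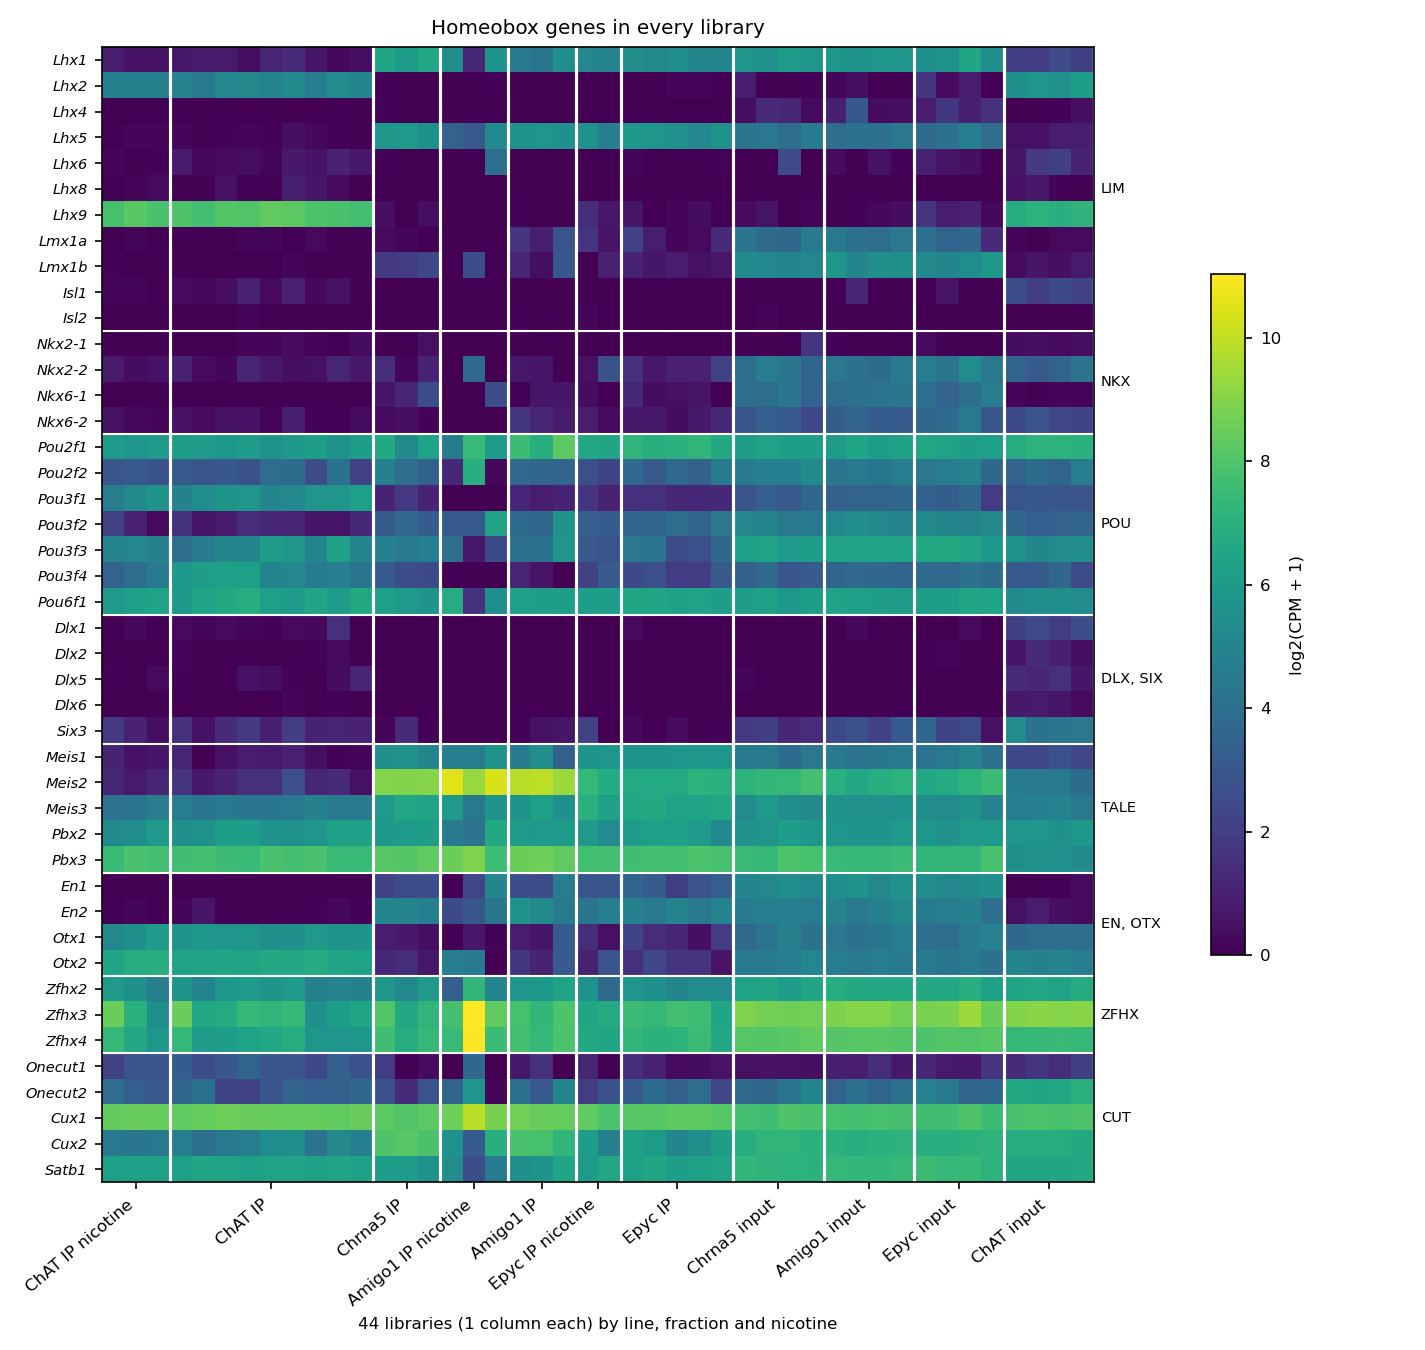
Level of each of the 44 members (rows, grouped by class) as log2(CPM + 1) in all 44 libraries (columns, grouped by line, fraction and treatment). ChAT IPs show Lhx9, Otx2 and Pou3f1 high and En1, Lmx1b and Nkx6-1 near 0, and Meis2 stands highest in the Amigo1 columns.

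Several of these calls rest on all libraries. In the ChAT line Dlx1, En2, Lhx1, Lmx1b, Zfhx4, Dlx6 and Dlx2 were no longer called when single libraries were left out (5, 5, 4, 4, 3, 2 and 1 of 7 libraries, with adjusted p up to 0.131). In the whole-tissue comparison Onecut1, Nkx2-2, Pou2f2 and Nkx6-2 were no longer called without 1 of the MHb inputs (4, 3, 3 and 2 of 4 inputs, adjusted p up to 0.179). Without the Amigo1 saline pump IP, further members were called in the Amigo1 line. Lhx1 (-1.30), Pou3f2 (-1.37), Zfhx4 (-0.50), Meis1 (0.79), Meis3 (0.50), Pbx2 (0.36) and En2 (0.68) were then called, as was Lhx4, which had 0 counts in the Amigo1 IPs. Leaving out any of the other 6 Amigo1 libraries ended the calls of En1, Otx1, Pou2f2, Pou3f3 and Zfhx2 (adjusted p up to 0.138). With the list shift taken out of the Amigo1 and Epyc comparisons, 5 members rose and 7 fell in Amigo1 IPs and 3 rose and 7 fell in Epyc IPs. Of the calls lost in both lines, the differences in Amigo1 and Epyc IPs were then larger, with wider errors, for Lhx5 (2.22 ± 0.84 and 2.10 ± 0.81), Lmx1a (-3.69 ± 1.44 and -4.11 ± 1.72) and En1 (-4.13 ± 2.92 and -4.61 ± 2.46). They were smaller for Nkx6-1 (-4.57 ± 2.34 and -4.14 ± 2.73), Lmx1b (-2.01 ± 3.27 and -3.78 ± 2.47) and Nkx6-2 (-1.19 ± 1.01 and -2.83 ± 0.99), and near 0 within their errors for Zfhx3 (-0.13 ± 0.77 and -0.48 ± 0.75). Pou3f3 was also lost in the Amigo1 line (-0.36 ± 0.48), and Lhx4 in the Epyc line, where the fit gave no usable error.

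Counted per kilobase of exon, Pbx3 led the members in ChAT IPs (34.2 CPM per kb), followed by Lhx9 (30.2) and Otx2 (23.0). In Chrna5 IPs the order was Pbx3 (47.5 CPM per kb), Meis2 (42.1) and Cux2 (25.8). Amigo1 IPs were led by Meis2 (70.7 CPM per kb), with Pbx3 at 59.1, and Epyc IPs by Pbx3 (35.4) and Meis3 (29.1). In whole tissue Zfhx3 led in MHb inputs (24.9 CPM per kb) and Pbx3 in the inputs of each IPN line (28.0 to 32.9).

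**Figure D2:**
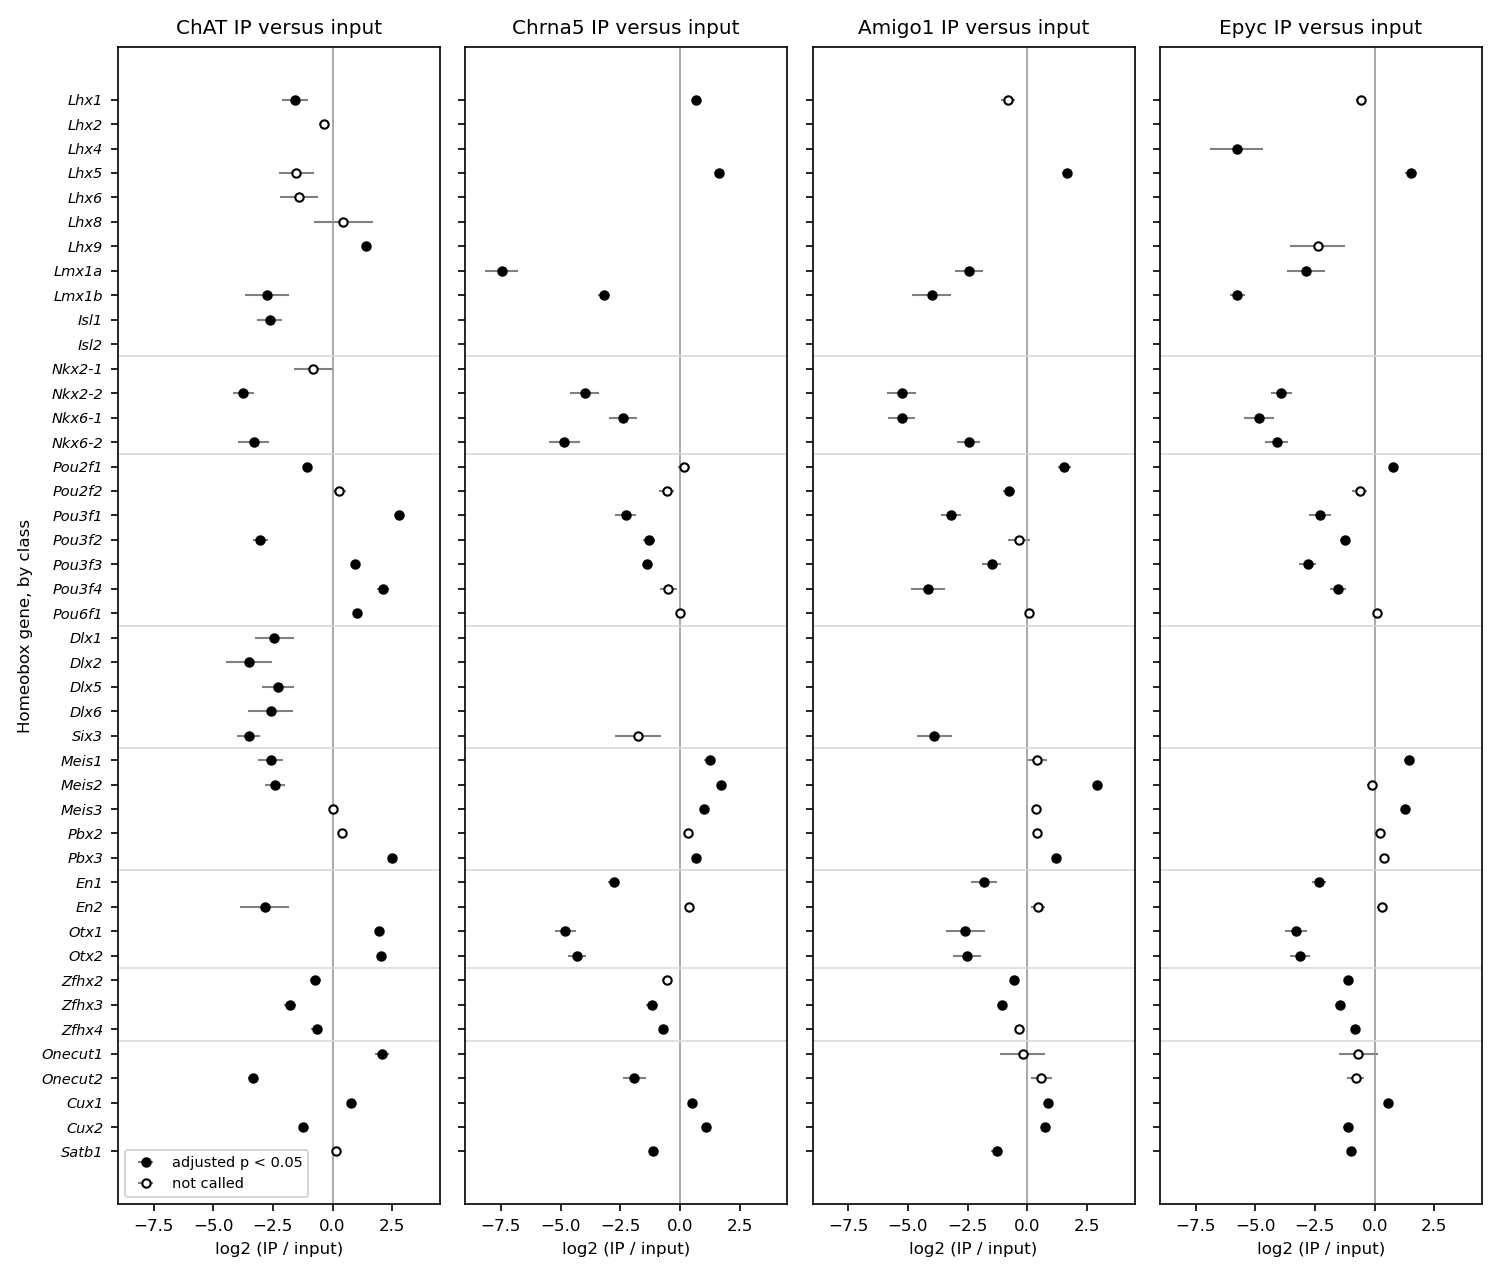
Log2 difference of IP over input (x axis) for each member, 1 panel per line, with bars for the standard error. Filled points are called at an adjusted p under 0.05, open points are not, and rows without a point were not tested. Otx1, Otx2 and Pou3f1 lie right of 0 in the ChAT panel and left of 0 in the 3 IPN panels.

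Lhx2 and Lhx9, LIM factors of the developing diencephalon, had the largest excess of MHb over IPN in whole tissue among the members tested. Lhx9 had 0.0237 to 2.24 CPM (median 0.216) in the 12 IPN inputs and 114, 138, 120 and 142 CPM in the MHb inputs, a difference of -8.17 ± 0.57 (IPN over MHb). In the ChAT line it had 323, 307 and 230 CPM in the IPs and those 114 to 142 CPM in the inputs, a rise of 1.41 ± 0.16 (adjusted p = 5.09e-05). The 2 groups did not overlap in either contrast, and over all 9 control ChAT IPs the range was 213 to 323 CPM.

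Lhx2 was as regional but was not raised in the IP. It had 29.7, 36.4 and 40.1 CPM in ChAT IPs and 44.8, 53.9, 46.8 and 70.3 CPM in MHb inputs (-0.37 ± 0.18, adjusted p = 0.115). With the replicate block over the 2 paired pools it was called lower (-0.70, adjusted p = 0.0184), as it was with all 9 IPs (-0.67, adjusted p = 0.00352). IPN inputs held 0 to 2.2 CPM of Lhx2 (median 0.105). ChAT IPs held 4626 counts in all, against 1 in Chrna5 IPs, a ratio of 2850 (ChAT over Chrna5, exact 95% interval 511 to 113000, covering counting error only). Lhx9 was higher in ChAT than in Chrna5 IPs by 10.13 ± 0.48. In bulk RNA, fewer cells of a type and less RNA per cell cannot be told apart, and this holds for every difference between fractions or regions given here.

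Thalamic neuron markers, like Lhx2 and Lhx9, were lower in IPN than in MHb inputs. In ChAT IPs most of these markers fell, whereas Lhx9 rose and Lhx2 was not called in the reported fit. The markers summed to 1010 to 1260 CPM in ChAT IPs and 3150 to 3480 CPM in MHb inputs, with 5 of 7 lower in the IP. In IPN inputs they summed to 414 to 573 CPM, where 7 of 7 were lower than in the MHb. Their part in the levels of Lhx2 was not tested.

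Lhx1 and Lhx5, paired LIM factors of neural tube interneurons, belonged to the IPN. Lhx5 had 54.0, 61.1 and 45.3 CPM in Chrna5 IPs and 17.7, 20.4, 14.6 and 23.2 CPM in their inputs, a rise of 1.65 ± 0.20 (adjusted p = 3.87e-05). It had 48.0, 55.0 and 45.2 CPM in Amigo1 IPs and 14.6 to 20.4 CPM in their inputs, a rise of 1.66 ± 0.19. Epyc IPs held 57.2, 56.9, 46.6, 33.9 and 48.2 CPM, and Epyc inputs 13.5 to 26.3 CPM, a rise of 1.53 ± 0.23. Every control IP of the 3 lines lay above every IPN input, and Amigo1 and Epyc IPs differed by 0.01 ± 0.21 (not called). ChAT IPs held 0.0684 to 0.383 CPM of Lhx5, lower than Chrna5 IPs by a log2 difference of -8.11 ± 0.50. Lhx1 had 88.0, 62.7 and 94.3 CPM in Chrna5 IPs and 50.3 to 67.7 CPM in their inputs, and rose by 0.69 ± 0.19, whereas Amigo1 and Epyc IPs held 18.7 to 43.9 and 31.3 to 42.2 CPM with differences of -0.82 ± 0.29 and -0.57 ± 0.22 that edgeR did not call and DESeq2 did (adjusted p = 0.0298 and 0.0403).

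Lmx1a and Lmx1b, LIM factors required for midbrain dopamine neurons and, for Lmx1b, for serotonin neurons, were high in whole IPN and low in its labelled neurons. Lmx1b had 31.0 to 56.2 CPM in the 12 IPN inputs (median 35.8) and 0.254, 0.507, 0.385 and 0.74 CPM in MHb inputs (6.44 ± 0.29). It had 2.64, 2.86 and 4.31 CPM in Chrna5 IPs, where it fell by 3.19 ± 0.26 against inputs of 31.0 to 36.5 CPM. In Amigo1 IPs it had 1.27 and 0.341 CPM in the baseline pools and 6.97 CPM in the saline pump pool, against 32.7 to 56.2 CPM in the inputs (-4.00 ± 0.81, and -5.84 without that pool). Epyc IPs held 0.426 to 1.1 CPM, against 31.9 to 55.7 CPM in inputs (-5.75 ± 0.32). IP and input did not overlap in any of the 3 lines. In the ChAT line, where its inputs were already under 1 CPM, Lmx1b was called lower in IPs (-2.76 ± 0.93), and with the replicate block over paired pools it was not (-4.80, edgeR adjusted p = 0.0836).

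Lmx1a had 0.252, 0.0939 and 0 CPM in Chrna5 IPs, against 19.1, 14.0, 11.7 and 21.6 CPM in inputs, and it also fell in the Amigo1 (-2.44 ± 0.59) and Epyc (-2.89 ± 0.79) IPs. The Epyc saline pump input was low for Lmx1a, with 1.46 CPM beside 10.4 to 15.5 CPM in the other 3 Epyc inputs, and it lay within the 0.0995 to 3.53 CPM of the Epyc IPs. Dopamine neuron markers fell with these genes, 8 of 8 in Chrna5 IPs (218 to 301 CPM, against 2290 to 2790 CPM in inputs), 7 of 8 in Amigo1 IPs (434 to 912, against 2450 to 3050) and 8 of 8 in Epyc IPs (161 to 342, against 2100 to 2420). Serotonin neuron markers fell for 5 of 5, 4 of 5 and 5 of 5 in the same lines, to sums of 13.0 to 31.7, 31.6 to 71.9 and 26.7 to 82.1 CPM, against 227 to 365 CPM in the IPN inputs. Their part in the Lmx1a and Lmx1b results was not tested.

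The remaining LIM genes were low. Lhx4, known for pituitary and motor neuron development, had 2 counts in all 5 Epyc IPs and 194 in Epyc inputs, a ratio of 71.4 (input over IP, exact 95% interval 19.5 to 594). Isl1, a factor of motor and striatal cholinergic neurons, had 0.205, 1.0 and 0.404 CPM in ChAT IPs and 5.2, 2.96, 4.51 and 3.33 CPM in MHb inputs (-2.63 ± 0.52), and was nearly absent from IPN inputs (0 to 1.24 CPM, median 0). Lhx6 had a median of 0.471 CPM over the 9 ChAT IPs. It was called lower than in inputs with all 9 (-1.80 ± 0.56, adjusted p = 0.0139) and was not called with the 3 on the inputs' list. Lhx8 and Isl2 stayed under a mean of 1 CPM in every line and fraction, as did Nkx2-1, Dlx2 and Dlx6.

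**Figure D3:**
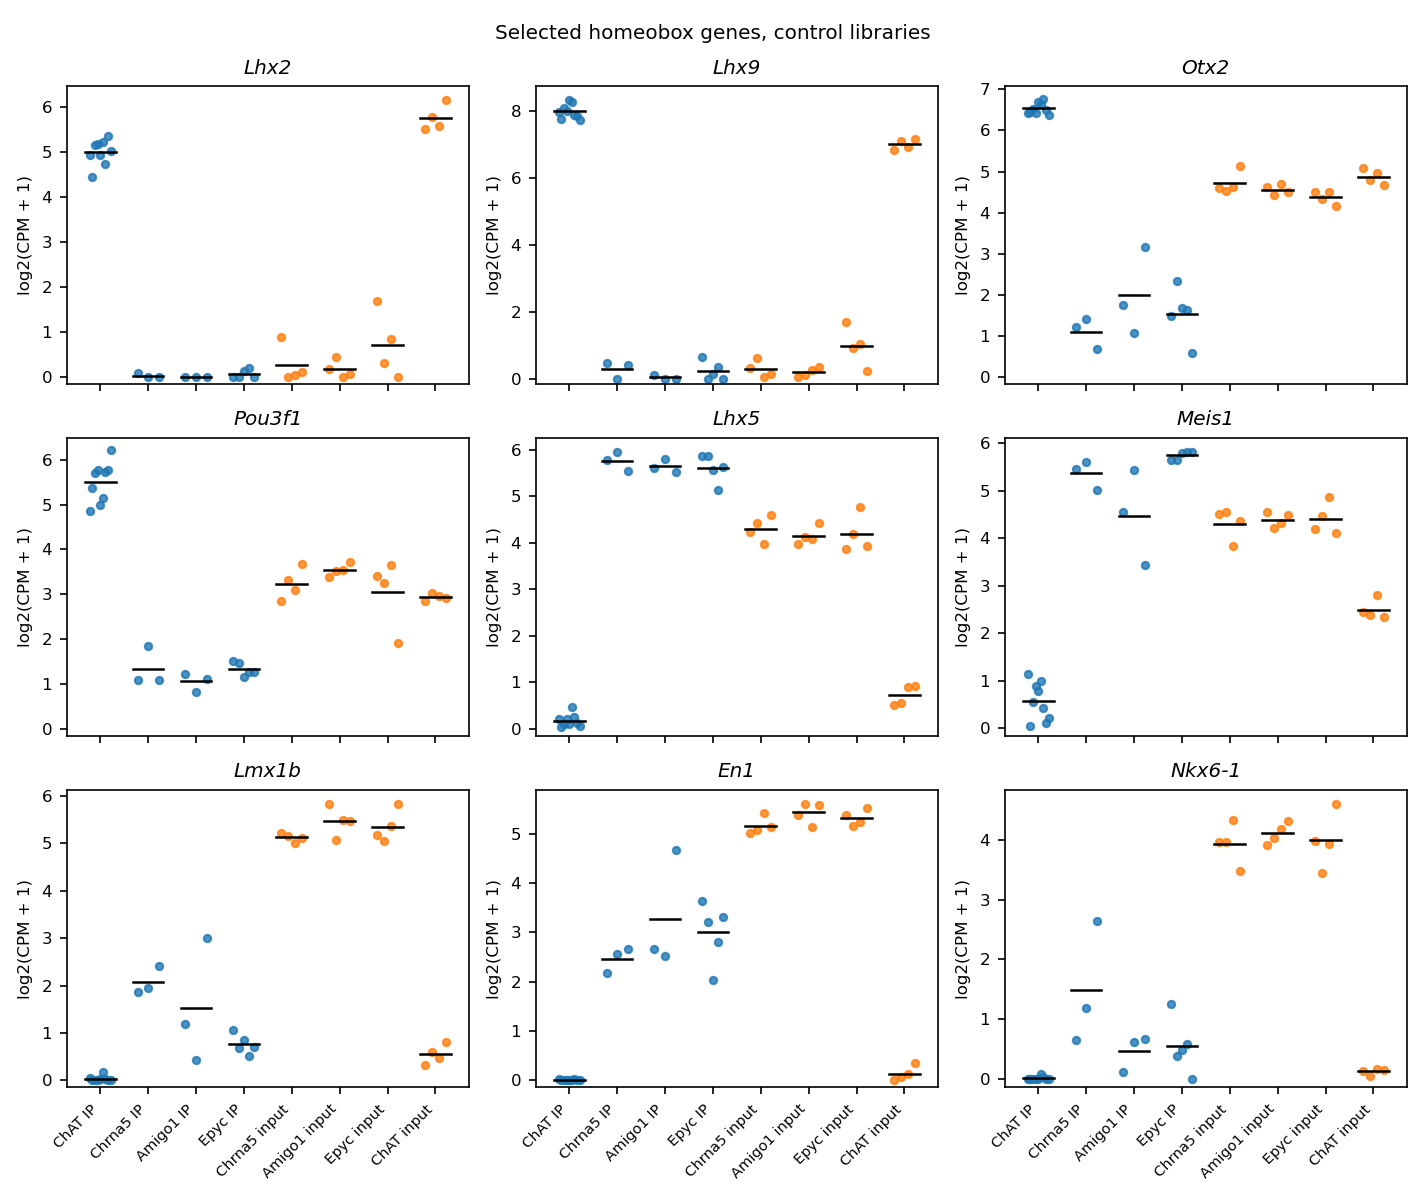
Level of 9 members as log2(CPM + 1) in each control library of each line (IP left of input), with a bar at the mean. Lhx2, Lhx9, Otx2 and Pou3f1 are high in ChAT IPs, Lhx5 and Meis1 in the IPN lines, and Lmx1b, En1 and Nkx6-1 in IPN inputs above their own IPs.

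The engrailed genes, which maintain the midbrain-hindbrain territory and its dopamine neurons, were found in IPN tissue and were near 0 in the MHb. En1 had 31.5 to 48.1 CPM in IPN inputs (median 39.0) and 0, 0.0507, 0.0907 and 0.264 CPM in MHb inputs, a difference of 8.97 ± 0.37. En2 had 15.5 to 36.2 CPM in IPN inputs (median 25.2) and 0.264 to 0.795 CPM in MHb inputs (5.62 ± 0.28). In the labelled IPN neurons En1 fell to 3.52, 4.88 and 5.33 CPM in Chrna5 IPs, against 31.5 to 41.8 CPM in inputs (-2.77 ± 0.25). In Amigo1 IPs En1 had 5.32 and 4.72 CPM in the baseline pools and 24.5 CPM in the saline pump pool, against 34.5 to 48.1 CPM in inputs (-1.81 ± 0.55, and -3.01 without that pool). Epyc IPs held 3.08 to 11.5 CPM of En1, against 34.8 to 45.1 CPM (-2.32 ± 0.30).

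En2 was not called in any of these 3 lines. It had 30.1, 31.0 and 25.9 CPM in Chrna5 IPs and 22.2 to 26.5 CPM in inputs (0.38 ± 0.18), with 22.1 to 49.7 CPM in Amigo1 IPs (0.44 ± 0.28) and 20.1 to 30.2 CPM in Epyc IPs (0.30 ± 0.22). En1 had 0 counts in the 3 ChAT IPs and 407 in Chrna5 IPs, at least 220-fold lower in ChAT with 3 counts over the group as the floor. En2 had 0.0342, 0 and 0.18 CPM in ChAT IPs, lower than in Chrna5 IPs by a log2 difference of -9.20 ± 0.63. The dopamine marker sums given with Lmx1a hold here too, and their part in the fall of En1 was not tested.

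Otx1 and Otx2, which pattern the forebrain and midbrain, went opposite ways in the labelled neurons, with small differences between whole tissues. Otx2 had 17.0 to 33.9 CPM in IPN inputs (median 21.9) and 32.8, 26.8, 30.0 and 24.4 CPM in MHb inputs (-0.38 ± 0.14, adjusted p = 0.0505), a difference called with RLE scaling (adjusted p = 0.0427) and by DESeq2 (adjusted p = 0.0303). Otx1 had 13.2 to 28.9 CPM in IPN inputs and 12.0 to 15 CPM in MHb inputs (0.41 ± 0.20, not called). In ChAT IPs Otx2 had 103, 99.3 and 88.6 CPM, above all 4 MHb inputs, and rose by 2.01 ± 0.14 (adjusted p = 2.78e-06). In Chrna5 IPs it had 1.32, 1.69 and 0.625 CPM, below inputs of 23.3, 22.1, 23.8 and 33.9 CPM, and fell by 4.31 ± 0.38 (adjusted p = 1.95e-06). The log2 enrichment of Otx2 was 6.31 ± 0.36 higher in the ChAT than in the Chrna5 line, in a test of the difference between lines. Otx1 followed, with 44.3, 45.4 and 48.7 CPM in ChAT IPs and 12.0, 14.9, 14.8 and 15 CPM in inputs (1.94 ± 0.14), and with 0.817, 0.704 and 0.367 CPM in Chrna5 IPs and 13.2 to 26.8 CPM in inputs (-4.79 ± 0.42). Its enrichment differed by 6.73 ± 0.40.

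Amigo1 and Epyc IPs also held less OTX than their inputs. Otx2 had 2.38, 1.12 and, in the saline pump pool, 7.99 CPM in Amigo1 IPs, against 20.6 to 24.8 CPM (-2.51 ± 0.59, and -3.67 without that pool), and 0.509 to 4.08 CPM in Epyc IPs, against 17.0 to 21.7 CPM (-3.11 ± 0.42). Otx1 differed by -2.59 ± 0.83 and -3.30 ± 0.48 in these lines, and by -4.78 in the Amigo1 line without that pool. Lmx1a was also called in the comparison of ChAT and Chrna5 enrichment (6.42 ± 1.34), with 0 to 0.227 CPM in every ChAT library on that list, and it was not called without the ChAT saccharin water IP 1 (adjusted p = 0.282).

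**Figure D4:**
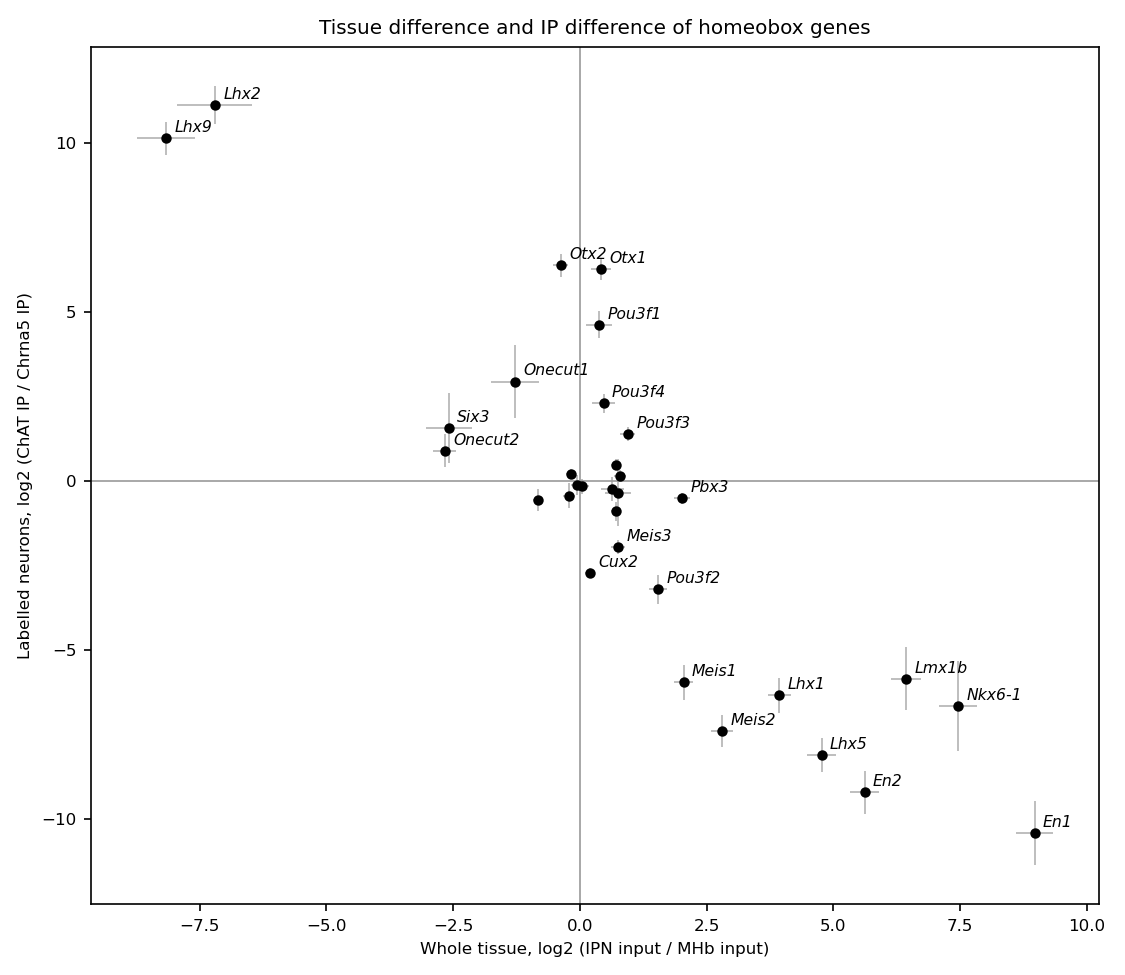
Log2 difference of IPN over MHb whole tissue (x axis) against log2 difference of ChAT over Chrna5 IPs (y axis) for the members tested in both, with standard errors. Otx1, Otx2 and Pou3f1 lie high on the y axis near 0 on the x axis, and En1, En2 and Lhx5 lie at the lower right; En1 had 0 counts in ChAT IPs and Lhx2 had 1 count in Chrna5 IPs, so their fitted heights depend on the prior count.

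NKX genes are ventral patterning factors, some of which (Nkx2-2, Nkx6-2) also act in the oligodendrocyte lineage. Nkx2-2, Nkx6-1 and Nkx6-2 fell in the IPs of every line in which they were tested, and Nkx2-1, tested in the ChAT line alone, was not called (-0.81 ± 0.81, adjusted p = 0.431). Nkx6-1 had 9.93 to 23.5 CPM in IPN inputs (median 14.8) and 0.0338 to 0.113 CPM in MHb inputs, a difference of 7.46 ± 0.38. It had 0.0794, 0.536 and 0.581 CPM in Amigo1 IPs, against 14.2 to 19.0 CPM in inputs (-5.26 ± 0.56), and 0 to 1.39 CPM in Epyc IPs, against 9.93 to 23.5 CPM (-4.85 ± 0.64). Chrna5 IPs were uneven, with 0.566, 1.27 and 5.24 CPM in pools 1, 2 and 4, against 10.2 to 19.2 CPM (-2.39 ± 0.58).

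Nkx2-2 fell in all 4 lines, with differences of -3.74 ± 0.45 (ChAT), -3.99 ± 0.61 (Chrna5), -5.27 ± 0.60 (Amigo1) and -3.92 ± 0.44 (Epyc). It had 0.701, 0.346 and 1.3 CPM in ChAT IPs and 10.9, 7.91, 10.5 and 17.2 CPM in their inputs, and 0.635, 0.536 and 0 CPM in Amigo1 IPs against 13.9 to 23.3 CPM. Nkx6-2 had 0.252, 0.376 and 0.0647 CPM in Chrna5 IPs and 4.2 to 9.26 CPM in inputs (-4.85 ± 0.66), 0.298 to 1.4 CPM in Epyc IPs and 7.08 to 21.4 CPM in inputs (-4.10 ± 0.47), and 0.137, 0.874 and 0.0898 CPM in ChAT IPs and 3.65 to 6.24 CPM in inputs (-3.30 ± 0.64). In the Amigo1 line its fall of 2.46 ± 0.49 was not called with the replicate block (-2.51, adjusted p = 0.0526). Nkx6-2 shares 12.9% of its exon bases with Inpp5a on the opposite strand. Oligodendrocyte marker sums were 119 to 306 CPM in ChAT IPs and 2430 to 2750 CPM in inputs, and 207 to 1440 CPM in IPs of the IPN lines and 4940 to 9110 CPM in their inputs. Their part in the NKX results was not tested.

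POU factors were divided by line. Pou3f1, known for glial and projection neuron differentiation, had 31.0, 34.6 and 53.2 CPM in ChAT IPs and 6.22, 7.22, 6.82 and 6.61 CPM in inputs, the largest rise among members of at least 1 CPM in that line (2.79 ± 0.19, adjusted p = 2.16e-06). In Chrna5 IPs it had 1.13, 2.58 and 1.12 CPM, against 6.16, 8.96, 7.57 and 11.8 CPM in inputs (-2.27 ± 0.45), and it fell in the Amigo1 (-3.19 ± 0.42) and Epyc (-2.31 ± 0.46) lines too. Whole tissues differed by 0.38 ± 0.25, which was not called, so the split appeared in the fraction contrast, where enrichment was 5.04 ± 0.42 higher in the ChAT than in the Chrna5 line.

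Pou3f4, a factor of the inner ear and ventral forebrain, had 30.3, 33.4 and 25.4 CPM in ChAT IPs and 4.97 to 11.3 CPM in inputs (2.12 ± 0.24). The 4 baseline ChAT IPs, which are on a list of their own, held 58.1 to 78.3 CPM. In Amigo1 IPs Pou3f4 had 1.19, 0.487 and 0 CPM, against 10.9 to 12.5 CPM in inputs (-4.18 ± 0.71), and in Epyc IPs 2.74 to 7.45 CPM, against 12.5 to 16.2 CPM (-1.52 ± 0.33, and -0.89 without the list shift, adjusted p = 0.175). Its enrichment was lower in the Amigo1 than in the Epyc line by a log2 difference of -2.68 ± 0.69, a call lost on the paired pools without the block (adjusted p = 0.109) and with it (adjusted p = 0.164), and without any 1 of 5 libraries (adjusted p up to 0.122 over the calls lost in this way), while IPs alone differed by -2.99 ± 0.88 (adjusted p = 0.0584, and 0.00129 by DESeq2).

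Pou3f2, which acts in hypothalamic and cortical neurons, had 1.32, 1.26 and 0.539 CPM in ChAT IPs and 8.74 to 12.3 CPM in inputs (-3.02 ± 0.32). It also fell in Chrna5 (-1.29 ± 0.27) and Epyc (-1.24 ± 0.23, and -1.02 without the list shift, adjusted p = 0.47) IPs, and its enrichment was lower in the ChAT than in the Chrna5 line (-1.78 ± 0.40). Pou3f3 had 66.7, 55.7 and 75.8 CPM in ChAT IPs and 32.5 to 47.6 CPM in inputs (0.95 ± 0.17). The other 6 control ChAT IPs, on the other lists, held 15 to 32.9 CPM, and with all 9 the difference was 0.11 (adjusted p = 0.815), and on the paired pools it was not called without the block (0.54, adjusted p = 0.449) or with it (0.37, adjusted p = 0.50). In the IPN lines Pou3f3 fell, with differences of -1.36 ± 0.18 (Chrna5), -1.49 ± 0.41 (Amigo1) and -2.81 ± 0.35 (Epyc), and the list shift of the last 2 lines has the same sign. The Amigo1 difference was -2.32 without the saline pump pool.

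The broadly expressed Pou2f1 had 190, 121 and 306 CPM in Amigo1 IPs, all above the 67.5 to 87.9 CPM of their inputs. The rise was 1.55 ± 0.27, and 1.10 without the saline pump pool. In Epyc IPs Pou2f1 had 102 to 154 CPM, all above 70.3 to 95.5 CPM (0.79 ± 0.16, and 0.47 without the list shift, adjusted p = 0.206). It fell in ChAT IPs (-1.09 ± 0.13), which held 50.2, 57.1 and 48.0 CPM against 113 to 141 CPM in inputs, and was not called in the Chrna5 line. Pou2f1 shares 18.1% of its exon bases with Cd247 on the opposite strand. Pou6f1 rose by 1.01 ± 0.13 in the ChAT line and was called in none of the 3 IPN lines, with an enrichment 0.94 ± 0.21 higher than in the Chrna5 line. Pou2f2 fell in the Amigo1 line (-0.76 ± 0.23), a call lost on the paired pools both without the block (-0.72, adjusted p = 0.10) and with it (-0.71, adjusted p = 0.183). In the Epyc line it was called lower on the paired pools, without the block (-1.21, adjusted p = 0.004) and with it (-1.21, adjusted p = 0.00514), but not over all control libraries (-0.63 ± 0.32, adjusted p = 0.143). The list shift named above has the same sign.

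The DLX genes, factors of forebrain GABA neurons, and Six3, a factor of the anterior forebrain, were found in MHb tissue and fell in its labelled neurons. Six3 had 0.958, 3.01 and 1.21 CPM in ChAT IPs and 39.5, 16.5, 19.3 and 20.0 CPM in inputs (-3.52 ± 0.46). All 5 genes tested fell in the ChAT line, and Six3 also fell in Amigo1 IPs (-3.89 ± 0.74). In the Epyc line Six3 did not pass the filter on low counts over all control libraries, and on the paired pools it was called lower without the block (-6.63, adjusted p = 0.000191) and with it (-6.83, adjusted p = 6.72e-05). Dlx1 had 0.0855, 0.2 and 1.84 CPM in ChAT IPs and 3.25, 4.72, 2.74 and 5.08 CPM in inputs (-2.44 ± 0.82). On the paired pools Dlx1, Dlx2 and Dlx5 were called neither without the block (adjusted p = 0.274, 0.195 and 0.142) nor with it (0.0623, 0.287 and 0.175). In IPN inputs Dlx1 had 0 to 0.208 CPM (median 0.0394) and Dlx5 0 to 0.0948 CPM, differences of -6.26 ± 0.64 and -6.13 ± 0.79 from MHb inputs. Dlx6 had 0 counts in the 12 IPN inputs, at least 71.9-fold lower than in MHb inputs. Forebrain GABA neuron markers fell for 6 of 8 in ChAT IPs, with sums of 46.4 to 144 CPM, against 265 to 682 CPM in inputs. The list is not particular to forebrain, as Gad1 and Slc32a1 are also among the interpeduncular markers. It summed to 1840 to 2960 CPM in IPN inputs, where DLX genes were near 0. The part of these cells in the DLX and Six3 results was not tested.

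TALE factors set the IPN lines apart from the MHb and from each other. Meis2, a cofactor known in striatal and midbrain neurons, had 911, 973 and 670 CPM in Amigo1 IPs and 127, 94.7, 117 and 140 CPM in their inputs, a rise of 2.94 ± 0.16 (adjusted p = 4.45e-06). In Chrna5 IPs it had 508, 496 and 518 CPM, against 138, 156, 163 and 217 CPM in inputs (1.74 ± 0.16, adjusted p = 2.41e-06). In Epyc IPs it had 106, 105, 105, 140 and 126 CPM, inside the 96.6 to 180 CPM of Epyc inputs (-0.12 ± 0.19, not called). Amigo1 IPs lay above all Epyc IPs, by 2.85 ± 0.16 (adjusted p = 1.98e-07), and the enrichment itself was higher in the Amigo1 than in the Epyc line by 3.03 ± 0.27 (adjusted p = 2.57e-07). In ChAT IPs Meis2 had 1.9, 5.54 and 1.57 CPM, against 13.7 to 21.7 CPM in inputs (-2.41 ± 0.41), lower than in Chrna5 IPs by a log2 difference of -7.40 ± 0.47.

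Meis1 had 43.1, 48.0 and 31.6 CPM in Chrna5 IPs and 13.3 to 22.4 CPM in inputs (1.24 ± 0.22), and 49.2 to 55.8 CPM in Epyc IPs and 16.3 to 28.4 CPM in inputs (1.42 ± 0.20). In Amigo1 IPs it had 22.5, 42.7 and 9.87 CPM, against 17.6 to 22.5 CPM, and was called only without the saline pump pool. Meis1 shares 9.77% of its exon bases with Gm37818, a gene on the inputs' list alone. It fell in ChAT IPs (0.736, 1.0 and 0.0898 CPM, against 4.07 to 5.96 CPM in inputs), by 2.59 ± 0.53.

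Meis3 rose in Chrna5 (1.03 ± 0.20) and Epyc (1.28 ± 0.16) IPs. It had 95, 103, 83.8, 83.7 and 95.2 CPM in Epyc IPs and 29.3 to 49.8 CPM in inputs, and 49.1, 76.3 and 45.7 CPM in Amigo1 IPs and 46.2 to 48.1 CPM in inputs. Its enrichment was lower in the Amigo1 line (-0.94 ± 0.25, adjusted p = 0.0369), a call lost on the paired pools without the block (adjusted p = 0.151) and with it (adjusted p = 0.177), and without the Amigo1 saline pump IP (adjusted p = 0.0938) or any 1 of 10 other libraries.

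Pbx3, a partner of HOX and MEIS proteins, was the TALE gene raised in both regions. It had 231, 220 and 176 CPM in ChAT IPs and 42.6, 47.0, 46.9 and 37.4 CPM in inputs (2.51 ± 0.15, adjusted p = 9.17e-07), and 369, 388 and 327 CPM in Amigo1 IPs and 161 to 186 CPM in inputs (1.18 ± 0.11). It rose in Chrna5 IPs by 0.68 ± 0.16, and in Epyc IPs it was not called over all control libraries (0.41 ± 0.16, adjusted p = 0.0516) but was on the paired pools, without the block (0.63, adjusted p = 0.00382) and with it (0.62, adjusted p = 0.00425), and by DESeq2 (0.40, adjusted p = 0.042). Amigo1 IPs lay above the 198 to 237 CPM of Epyc IPs by 0.72 ± 0.13, and the difference of enrichment (0.75 ± 0.21) was lost on the paired pools without the block (adjusted p = 0.194) and with it (adjusted p = 0.264), and without any 1 of 11 libraries. Pbx3 was lower in ChAT than in Chrna5 IPs (-0.51 ± 0.16), a call lost without any 1 of the 6 libraries (adjusted p up to 0.136). Pbx2 had 37.3 to 79.4 CPM in all control IPs and was called in no comparison between lines, fractions or regions, except higher in Chrna5 IPs with the replicate block (0.46, adjusted p = 0.0164), and higher in Amigo1 IPs by DESeq2 (0.40, adjusted p = 0.0118) and without the saline pump pool, and in ChAT IPs without saccharin water IP 2.

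**Figure D5:**
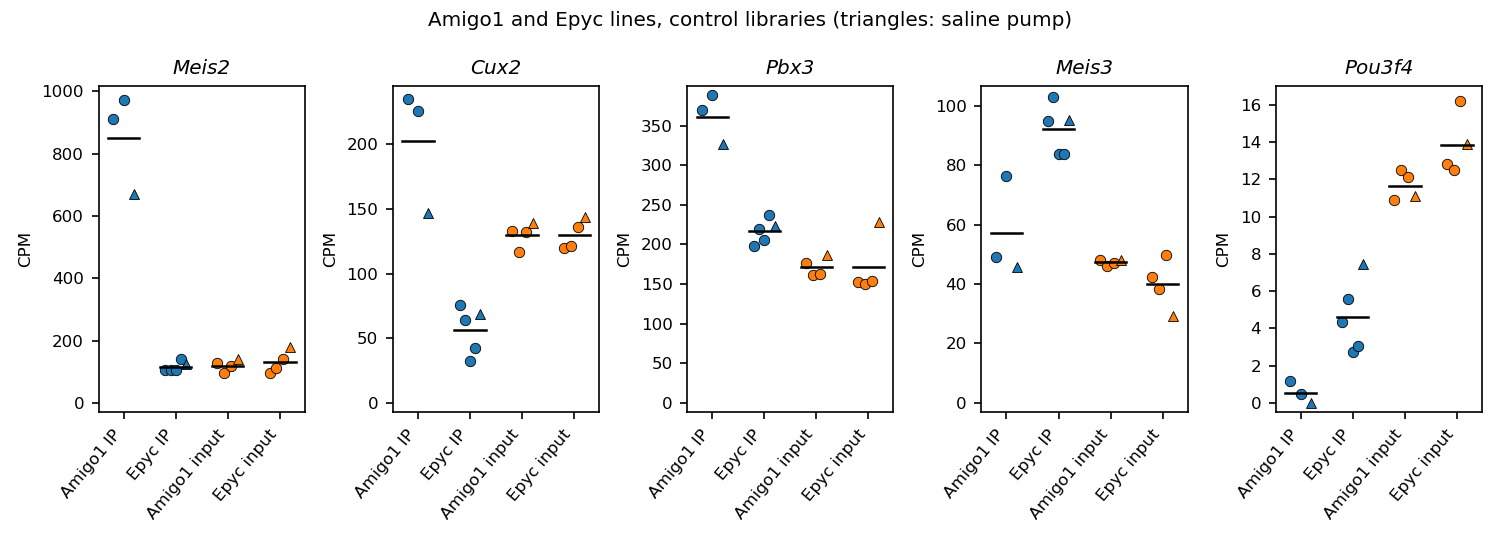
Level of Meis2, Cux2, Pbx3, Meis3 and Pou3f4 in CPM in control IPs and inputs of the Amigo1 and Epyc lines, 1 point per library, with triangles for saline pump pools. Meis2 reaches 670 to 973 CPM in Amigo1 IPs and 105 to 140 CPM in Epyc IPs, and Cux2 147 to 235 and 32.3 to 75.9 CPM.

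CUT factors, named for their cut repeats, followed no single direction. Cux2, known in upper cortical layers, had 257, 290 and 235 CPM in Chrna5 IPs and 116 to 147 CPM in inputs (1.10 ± 0.13), and 235, 226 and 147 CPM in Amigo1 IPs and 117 to 139 CPM in inputs (0.74 ± 0.16). In Epyc IPs it had 75.9, 64.2, 32.3, 42.5 and 69.0 CPM, against 120 to 144 CPM in inputs (-1.13 ± 0.21), where the list shift has the same sign and its removal ended the call (-0.14, adjusted p = 0.839). Amigo1 and Epyc IPs, on one list, did not overlap (1.83 ± 0.25, adjusted p = 0.000431), and enrichment differed by 1.85 ± 0.29. ChAT IPs held 39.9, 44.6 and 36.1 CPM, against 103 to 115 CPM in inputs (-1.22 ± 0.13, and -1.97 with the replicate block, adjusted p = 0.0527), and whole tissues differed by 0.19 ± 0.09, which was not called.

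Its paralogue Cux1 rose in all 4 lines, by 0.77 ± 0.11 (ChAT), 0.53 ± 0.14 (Chrna5), 0.86 ± 0.11 (Amigo1) and 0.57 ± 0.13 (Epyc). Onecut1, a factor of liver and motor neurons, had 6.84, 6.47 and 9.34 CPM in ChAT IPs and 1.58, 2.15, 1.7 and 3.23 CPM in inputs (2.06 ± 0.29), and it shares 52.8% of its exon bases with Gm20649, a gene on the inputs' list alone. Onecut2 went the other way in the same libraries, with 6.29, 10.4 and 9.25 CPM in ChAT IPs and 102, 90.4, 93.1 and 127 CPM in inputs (-3.34 ± 0.22). Satb1, a chromatin organizer of cortical interneurons, fell in Chrna5 (-1.11 ± 0.15), Amigo1 (-1.29 ± 0.24, and -1.67 without the saline pump pool) and Epyc (-0.99 ± 0.13) IPs. It stayed within 0.13 ± 0.11 of input in the ChAT line, a difference in enrichment of 1.19 ± 0.18 between the ChAT and Chrna5 lines.

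The zinc finger homeobox genes fell in most lines. Zfhx3, known for its role in circadian neurons, had 146, 167 and 70.4 CPM in ChAT IPs and 484, 544, 521 and 540 CPM in inputs (-1.78 ± 0.26), and it fell in the Chrna5 (-1.18 ± 0.24), Amigo1 (-1.07 ± 0.18) and Epyc (-1.46 ± 0.22) lines. Zfhx4 fell in the ChAT (-0.66 ± 0.22), Chrna5 (-0.71 ± 0.18) and Epyc (-0.82 ± 0.16) lines, and Zfhx2 in the ChAT (-0.73 ± 0.23), Amigo1 (-0.54 ± 0.18) and Epyc (-1.13 ± 0.17) lines. The Zfhx2 call in the Amigo1 line was lost on the paired pools without the block (adjusted p = 0.109) and with it (adjusted p = 0.126). In the Chrna5 line Zfhx2 was not called (-0.54 ± 0.21, adjusted p = 0.0599), also not on the paired pools (-0.62, adjusted p = 0.0537), but was with the block (-0.67, adjusted p = 0.00704) and by DESeq2 (-0.55, adjusted p = 0.0353). Without the list shift the Epyc differences were -0.08 for Zfhx4 (adjusted p = 0.953) and -0.21 for Zfhx2 (adjusted p = 0.781), neither called. Zfhx2 shares 17.9% of its exon bases with its antisense gene Zfhx2os, and the libraries do not mark strand.

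The nicotine comparisons called no member. In Amigo1 IPs 0 of 12864 genes were called (0%), with 28 members tested. In Epyc IPs 1 gene of 15011 was called (0.00666%), with 31 members tested, and in ChAT IPs 0 of 14893 genes (0%), with 33 tested. The ChAT fit took all 9 control IPs and the 3 nicotine IPs, with a term for the gene list. All nicotine IPs were on 1 list, so the effect rests on the 2 control IPs on that list, saline-injected saccharin water 1 and saline pump 1. DESeq2 called 1 member higher in Amigo1 nicotine IPs and 0 in the other 2 lines. Amigo1 nicotine IPs differed among themselves. Zfhx3 had 219, 2090 and 327 CPM in pools 1, 3 and 4 on nicotine, against 224, 157 and 254 CPM in controls, and Zfhx4 had 174, 1980 and 187 CPM, against 209, 164 and 236 CPM. Their interpeduncular marker sums were 10100 to 25700 CPM, against 6380 to 6850 CPM in controls. Meis2 had 1460, 633 and 1320 CPM in Amigo1 nicotine IPs and 911, 973 and 670 CPM in controls (1.10 ± 0.36, adjusted p = 0.183), and 160 and 110 CPM in Epyc nicotine IPs and 105 to 140 CPM in controls. Controls of the Amigo1 line did not drink saccharin, so nicotine and saccharin cannot be told apart there.

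Partners of these factors also changed in the IPs. Of 10 LIM cofactors listed, 5 rose and 2 fell in ChAT IPs (50.5% of all genes called) and 4 and 1 in Chrna5 IPs (34.0%). In Amigo1 IPs 3 rose and 5 fell (30.6%), and in Epyc IPs 6 and 2 (36.1%). These counts by line do not test a difference between lines. Between the IPN lines 4 of the cofactors were lower in Amigo1 than in Epyc IPs and 0 higher, where 7.51% of all genes were called. They were the LIM-domain-binding Ldb2 (-2.76 ± 0.56), the LIM-only genes Lmo2 (-3.73 ± 0.56) and Lmo3 (-2.29 ± 0.23), and Ssbp2 (-1.30 ± 0.21), whose product stabilizes LDB proteins. Of 7 TALE partners outside the 44 genes, 3 rose and 2 fell in the ChAT line, where 50.5% of all genes were called. Among them Pknox2 rose (2.34 ± 0.14). The 22 HOX cluster genes, which pattern hindbrain and spinal cord, summed to at most 4.46 CPM in any control library.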

How the data were processed

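Each library's deposited file lists whole-number read counts by gene symbol, made by the authors with STAR 2.3.0e, HTSeq and the mm10 build, per the submitters' processing notes. Per the labels' protocols, cDNA was amplified without molecular identifiers, so intervals and floors cover counting error only. The files use 3 gene lists (37328, 32532 and 24454 symbols in 22, 18 and 4 libraries), and 22682 symbols, with 71.6 to 98.3% of counts in genes, are in all. Reads outside genes were 8.46 to 27.3% (no feature) and 0.536 to 5.56% (ambiguous), and rows without a gene name stayed out.

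Groups came from the labels, and 1 pool of animals was 1 replicate. The left and right baseline MHb inputs counted as separate replicates, though the labels do not say whether the same males gave both. The reported fits took an IP and its input as independent, so p-values measure the spread between libraries and leave this pairing out. Counts were tested in R 4.3.3 with edgeR 4.0.16 (TMM scaling, minimum count 10, quasi-likelihood F test with robust settings). All genes tested entered the Benjamini-Hochberg adjustment, with 0.05 as the threshold. A log2 change of a gene with few counts depends on the prior count. Amigo1 and Epyc IPs were compared with inputs on shared symbols. Levels are CPM, computed from the deposited counts. Alternatives were DESeq2 1.42.0, RLE scaling, no filter, other sets of libraries, a gene list term, a replicate block over paired pools, the same pools without it (added after seeing the data) and leaving out each library. The baseline ChAT inputs, from left or right MHb, pair with no IP. Other IPs and inputs of 1 number and group were read from the protocol as coming from the same homogenate, which pairs them. The correlation of their deviations was 0.454 in ChAT, 0.237 to 0.35 in Chrna5, 0.087 to 0.13 in Amigo1 and 0.043 to 0.056 in Epyc pools. The fits were tested on simulated counts. Exon overlaps and lengths came from GENCODE M21. The 44 genes and all lists were chosen with earlier results of these data known. Values by library are given for up to 4 called members per direction with the largest change and at least 1 CPM in a group; other values by library were chosen after they were seen.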

Additional observations from a re-analysis of the deposited data

Results flagged for a closer look

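In 15 of 182 groups of 4 to 10 libraries, 1 library lay farther from the rest than Dixon's 95% limit allows, where chance flags about 1 in 20. In ChAT IPs Meis2 had 5.54 CPM in the saccharin water 2 pool (0.402 to 2.13 CPM in the others) and Zfhx3 had 359 CPM in the baseline 1 pool (45.9 to 167). Among ChAT inputs, baseline 1 had 39.5 CPM of Six3 (16.5 to 20.0) and 12.0 CPM of Otx1 (14.8 to 15). The second saline-injected input had 13.7 CPM of Meis2 (21 to 21.7) and 103 CPM of Cux2 (113 to 115), and the first had 170 CPM of Zfhx4 (161 to 162). Among Chrna5 inputs, baseline 3 had 4.84 CPM of Lhx6, a factor of forebrain interneurons (0 to 0.0246 CPM in the others), baseline 2 had 81.2 CPM of Pou2f1 (70.5 to 72.2), and baseline 4, the male pool, had 33.9 CPM of Otx2 (22.1 to 23.8). Amigo1 input baseline 2 had 7.08 CPM of Lhx4 (0.274 to 0.95). Epyc IP saline pump 1 had 37.3 CPM of Pbx2 (65.9 to 74.9). Among Epyc inputs, baseline 4 had 90.2 CPM of Lhx1 (41.1 to 48.8) and 256 CPM of Cux1 (187 to 198), and saline pump 2 had 228 CPM of Pbx3 (150 to 154).

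Enrichment of 5 members differed between the Amigo1 and Epyc lines by a test of the difference itself, in log2 ± SE Meis2 3.03 ± 0.27, Cux2 1.85 ± 0.29, Pbx3 0.75 ± 0.21, Meis3 -0.94 ± 0.25 and Pou3f4 -2.68 ± 0.69. The calls of Pbx3, Meis3 and Pou3f4 were lost on the paired pools, with or without the replicate block. Between the ChAT and Chrna5 lines enrichment was higher in ChAT for Otx1 (6.73 ± 0.40), Lmx1a (6.42 ± 1.34), Otx2 (6.31 ± 0.36), Pou3f1 (5.04 ± 0.42), Pou3f4 (2.55 ± 0.41), Pou3f3 (2.25 ± 0.25), Pbx3 (1.78 ± 0.24), Satb1 (1.19 ± 0.18) and Pou6f1 (0.94 ± 0.21). It was lower in ChAT for Meis2 (-4.19 ± 0.44), Meis1 (-3.84 ± 0.50), En2 (-3.49 ± 0.68), Lhx5 (-3.11 ± 0.54), Cux2 (-2.37 ± 0.19), Lhx1 (-2.24 ± 0.47), Pou3f2 (-1.78 ± 0.40), Pou2f1 (-1.33 ± 0.32) and Meis3 (-1.08 ± 0.26). Lmx1a, En2 and Lhx5 were under 1 CPM in every ChAT library. The Lmx1a call was lost without the ChAT saccharin water IP 1 (edgeR adjusted p = 0.282).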

How the results depend on the processing

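Among values of members called in the reported fits, recomputed under alternatives, 2086 kept their direction and side of the threshold, 163 lost the call and 2 reversed. Calls that an alternative gained are outside these counts. Both reversals came with the gene list term in the Amigo1 line, Pou2f2 (1.14) and Zfhx2 (0.35). That term takes the shift between lists from ChAT IPs, and the number of members lower became 7 in Amigo1 and 7 in Epyc IPs and the number higher 3 in Epyc IPs (16, 18 and 5 in the fits reported). Members lower in Amigo1 than in Epyc IPs were 3 with DESeq2, 1 with RLE scaling, 1 without a filter and 3 with Chrna5 IPs in the fit, against 0. Members higher in ChAT than in Chrna5 IPs were 12 without a filter, against 7. Members of lower enrichment in Amigo1 than in Epyc were 1 without a filter and 0 on the paired pools, with or without the replicate block, against 2. DESeq2 called 1 member higher in Amigo1 nicotine IPs. In ChAT IPs 4 members were lower on nicotine when only the 2 nicotine and 2 saccharin water IPs without injection entered. Treatment and gene list coincide there and cannot be told apart, and the share of all genes called is not given. The cause of the other changes was not tested.

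Counts of members under alternatives, here and above, are given without the share of all genes called in the same fits. They show how the calls of members moved, not how members stood against all genes. With single libraries left out, members higher and lower were 10 to 11 and 14 to 19 in the ChAT line, 8 to 9 and 15 to 17 in Chrna5, 6 to 10 and 11 to 20 in Amigo1, and 5 to 6 and 18 to 20 in Epyc. They were 3 to 4 and 0 to 3 between Amigo1 and Epyc IPs, 7 to 10 and 11 to 13 between ChAT and Chrna5 IPs, and 17 to 19 and 8 to 11 between tissues. For enrichment they were 2 to 4 and 0 to 2 (Amigo1 over Epyc) and 8 to 11 and 9 to 10 (ChAT over Chrna5), and 0 for nicotine in every line. With the replicate block over paired pools they were 9 and 14 in ChAT, 9 and 16 in Chrna5, 6 and 13 in Amigo1 and 6 and 20 in Epyc. On the same pools without the block they were 7 and 15, 8 and 15, 6 and 11, and 6 and 20. Without the block the paired pools also lost Onecut1 and Cux1 in ChAT (adjusted p = 0.104 and 0.0699) and Pou3f3, En1 and Otx1 in Amigo1 (0.0544 to 0.0852), all called with it. Dlx6 and En2 were not tested on the ChAT pools.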
